A study of Mus musculus with 2 samples.

Results

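The 34 genes described here carry out cholesterol synthesis, its control by the sterol regulatory element binding protein 2 (SREBP2), and the movement of sterol inside the cell. They were the rows of both count matrices, of 32285 genes in all, whose symbol was on a fixed list, and every member was found. By role, 19 encode enzymes of synthesis, 6 the SREBP2 control machinery and 9 proteins of sterol traffic. The data were 2 single-cell RNA libraries of mouse small intestine lamina propria, the connective tissue under the gut epithelium, each made from live CD45+ cells negative for EPCAM, Ter119 and CD31 that were sorted from 3 mice and pooled. One pool came from mice with floxed alleles of Aster-A (Aster-A F/F, written F/F below). The other came from mice with the same floxed alleles and CD4-Cre, a transgene that drives the Cre recombinase from Cd4 control elements (CD4-Cre; Aster-A F/F, written CD4-Cre). All mice were female littermates aged 10 to 12 weeks, fasted for 16 h and then given olive oil by gavage for 2 h, so both groups share the fast and the oil. Which exons are floxed was not given in the sources used here. Each genotype was 1 library from 1 pool. No test of genotype was therefore possible, and every interval below is an exact 95% interval that covers counting error alone. Molecules are counted as unique molecular identifiers (UMIs), and a level is the UMIs of a gene per 1000000 UMIs of the same class and library (CPM). Pairs of values are given in the order F/F, CD4-Cre.

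Cells make cholesterol from acetyl-CoA through mevalonate, the isoprenoids and squalene, and the same isoprenoids feed protein prenylation. SREBP2 is held in the endoplasmic reticulum by SCAP and the INSIG proteins while sterol is plentiful. When sterol is scarce, SCAP escorts it to the Golgi, the site-1 and site-2 proteases release its active part, and that part binds sterol regulatory elements together with the factor NF-Y. Cholesterol taken up from outside leaves the lysosome through NPC2 and NPC1, is passed between membranes by oxysterol-binding, StAR-related and Aster proteins, and is stored as ester by SOAT1. Dividing lymphocytes are known to use the synthesis pathway, and macrophages to take up and store sterol.

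After filtering, 12594 F/F and 12526 CD4-Cre cells remained, with medians of 15319.5 and 14031 UMIs, and 47 barcode sequences occurred among the kept cells of both. Cells were clustered jointly without the members, and 14 classes are described, of which 10 held at least 100 cells in both libraries. Classes called "like" carry markers of a known type. CD4 T-like cells (780 and 1179 cells) held Cd3e in 75.5% and 72.6% of cells and Cd8b1 in 1.03% and 1.61%. Their Cd4 share differed between the pools, 57.7% in F/F and 92.6% in CD4-Cre, and its part in the results was not tested. Whether the transgene carries Cd4 sequence that would be counted was not given in the sources used here. The other classes with a genotype ratio were plasma-like (6842 and 6191 cells), cycling plasma-like (1425 and 1141), CD8 T-like (136 and 361), macrophage-like (748 and 545), cDC1-like (type 1 conventional dendritic cells, 340 and 484), and 4 lymphoid clusters named by leading genes. These were the Xcl1/Klrd1 cluster (361 and 501 cells), the Gzma/Trdc cluster (226 and 301), the Zbtb16/Il7r cluster (371 and 758) and the Il23r/Cd163l1 cluster (101 and 139). The pools also differed in RNA of other tissue. Pancreatic acinar markers summed to 560 and 20.6 CPM in the CD4 T-like class and gastric markers to 29 and 413, and their part in the results was not tested. A cluster led by acinar genes, with 690 cells from F/F and 1 from CD4-Cre, was left out, as was one that mixed T cell and plasma genes. Gramd1a, which encodes Aster-A, stood at 51.6 and 40.8 CPM in CD4 T-like cells, a CD4-Cre over F/F ratio of 0.789 (0.635 to 0.983). Elsewhere the Gramd1a ratio was 0.624 (0.388 to 0.998) for the Il23r/Cd163l1 cluster and 0.809 (0.672 to 0.975) for the Xcl1/Klrd1 cluster. CD8 T-like cells had 0.801 (0.553 to 1.18) and plasma-like cells 0.969 (0.888 to 1.06). The 3′ tag need not lie in the deleted segment, so these values do not check the deletion.

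The summed synthesis enzymes were highest in the cycling classes in both libraries. They stood at 254 and 256 CPM in plasma-like cells and at 634 and 618 in cycling plasma-like cells. Cycling T-like cells, with 81 and 112 cells, stood at 585 and 672 CPM, and CD4 T-like cells at 401 and 371. The Gzma/Trdc cluster was at 455 and 458 CPM, macrophage-like cells at 376 and 405, cDC1-like cells at 374 and 376 and CD8 T-like cells at 381 and 326. The Zbtb16/Il7r cluster was at 377 and 339 CPM, the Il23r/Cd163l1 cluster at 358 and 332 and the Xcl1/Klrd1 cluster at 303 and 304. Many neighbours in this order have overlapping intervals, such as macrophage-like and cDC1-like cells in F/F. B-like cells stood at 351 and 497 CPM, but they were 70 and 156 cells, of which 21 and 87 held a UMI of Mki67, a gene of dividing cells. Macrophage markers in them summed to 2505 and 510 CPM, and the part of both in the B-like level was not tested.

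**Figure D1:**
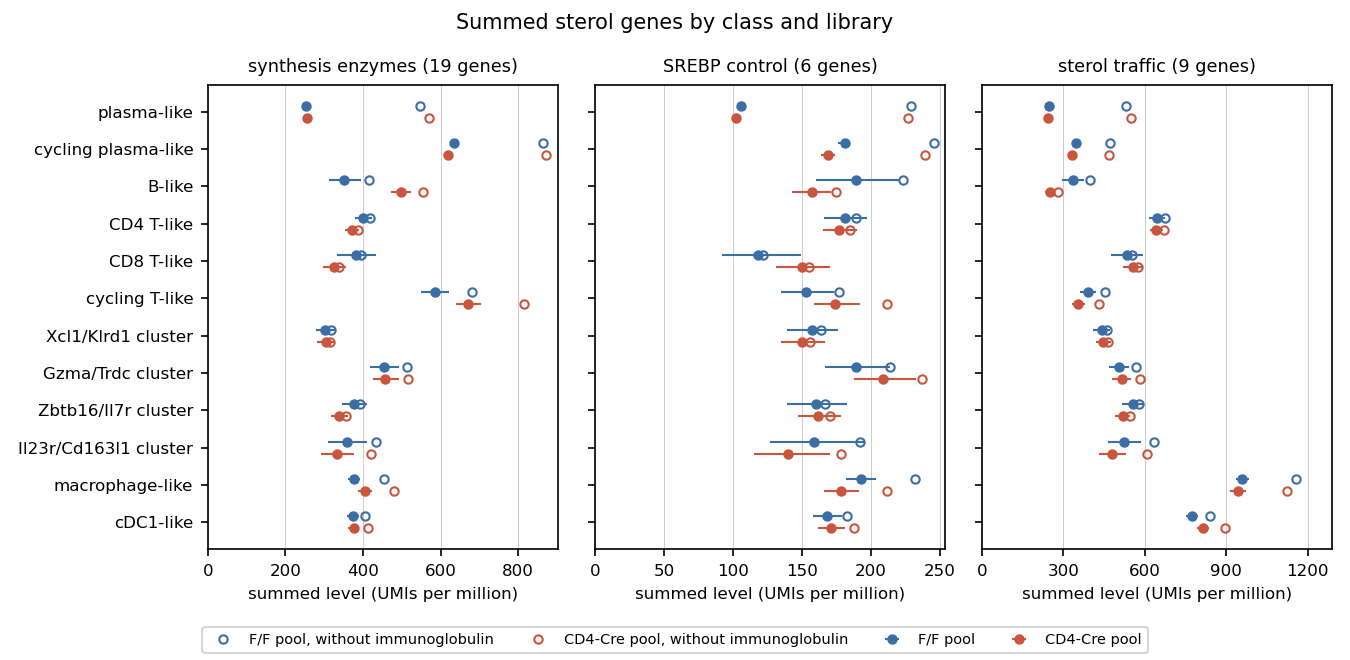
Summed level of the synthesis, SREBP control and sterol traffic genes in 12 classes, in UMIs per 1000000, with exact 95% Poisson intervals as bars and 1 colour per pool. Filled points use all UMIs of the class and open points leave immunoglobulin genes out of the total. Filled points of cycling plasma-like and cycling T-like cells lie furthest right in the synthesis panel, and those of macrophage-like and cDC1-like cells in the traffic panel.

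Immunoglobulin transcripts fill 53.6% and 55.3% of the UMIs of plasma-like cells and 26.6% and 29.2% of those of cycling plasma-like cells, and so lower the CPM of every other gene there. The cycling plasma-like over plasma-like ratio of the summed enzymes was 2.5 (2.46 to 2.55) in F/F and 2.42 (2.37 to 2.46) in CD4-Cre. With immunoglobulin out of the total it was 1.58 and 1.53. All 19 enzymes were above 1 in both libraries, as were 77.1% of 12335 genes with at least 100 UMIs, and 18 were past 1.5-fold, against 45.3% of those genes. Without immunoglobulin 17 of the 19 were above 1 in both libraries, against 40.6% of genes, and 9 were past 1.5-fold, against 15.1%. The median gene moved from 1.51 to 0.957 in F/F between these scalings, and the median enzyme from 2.51 to 1.59.

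The enzymes of successive steps differed in this ratio. Acat2, which joins acetyl-CoA units at the start, had 4.98 and 4.61. Among the mevalonate steps Hmgcs1, the gene of the synthase that makes HMG-CoA, had 3.41 and 3.21, and the kinase genes Mvk and Pmvk had 3.64 and 3.23, and 3.81 and 3.78. Mvd, the decarboxylase gene, had 2.12 and 2.05. Idi1, which isomerises the isoprenoid building block, stood at 6.61 and 5.55 CPM in plasma-like and 38.1 and 33.4 in cycling plasma-like cells, ratios of 5.76 and 6.01 that were the highest of the 34 members in each library. Fdps, which makes farnesyl diphosphate, went from 70.2 and 72.5 to 178 and 177 CPM. Ggps1, which extends farnesyl to geranylgeranyl diphosphate and so leads away from sterol, had 1.49 and 1.64, and without immunoglobulin 0.939 and 1.04. Squalene is made by the product of Fdft1, with 1.75 and 1.6, and oxidised by that of Sqle, with 2.81 and 3.03. Cyp51, the lanosterol demethylase gene, had 3.12 and 3.15, and Hsd17b7, a reductase of the demethylation steps, 3.53 and 3.77. The late enzyme genes Ebp, Sc5d and Dhcr7 had 2.13 and 2.03, 1.59 and 1.93, and 1.8 and 1.7. Lss, Tm7sf2, Msmo1 and Nsdhl lay between 1.57 and 2.51. Apart from the second pair for Ggps1, these ratios use all UMIs, on which the median gene stood at 1.51. Without immunoglobulin several were near 1: Fdft1 had 1.11 and 1.01, Dhcr7 1.14 and 1.07 and Sc5d 1.01 and 1.22. Tm7sf2 then had 1.55 and 0.990, while 9 of the 19 enzymes stayed past 1.5-fold in both libraries.

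Promoters of 5 members are shown. Hmgcs1 and Stard3 held the sterol regulatory element searched, Idi1 and Cyp51 are enzyme genes with high cycling ratios, and Soat1 had the widest range of levels among members with UMIs in every class. RefSeq windows (GRCm38.p6) of 250 bases before to 50 after the start were searched for 29 of the 34 members, 36 windows in all. No window of Fdps, Fdft1, Sqle, Npc1 or Stard4 was searched, so the motif counts leave these members out. TCACNCCAC, letters of the sterol regulatory element, was searched on both strands and found for 2 of these 29 genes, and in 1.24% of all 32851 windows. CCAAT, the letters NF-Y binds, searched on both strands, was found for 15 of 16 enzyme genes, 3 of 6 control genes and 6 of 7 traffic genes, or in 69.4% of the members' windows against 37.4% of all. In the printed stretches no match overlaps another. A match is a run of letters, not a site shown to be used. The 250 bases before the start are printed 5′ to 3′ along the gene with both motifs in capitals, for Hmgcs1 (chr13:119690101-119690350, plus strand), Idi1 (chr13:8885356-8885605, plus), Cyp51 (chr5:4104698-4104947, minus), Stard3 (chr11:98358118-98358367, plus) and Soat1 (chr1:156474329-156474578, minus). The printed stretch of Hmgcs1 holds 3 CCAAT matches, that of Idi1 2, and those of Cyp51, Stard3 and Soat1 1 each.
Hmgcs1: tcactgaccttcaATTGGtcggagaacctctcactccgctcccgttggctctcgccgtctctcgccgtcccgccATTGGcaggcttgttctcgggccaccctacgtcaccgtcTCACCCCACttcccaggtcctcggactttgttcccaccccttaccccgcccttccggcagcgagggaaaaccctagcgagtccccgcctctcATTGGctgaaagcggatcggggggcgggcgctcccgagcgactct
Idi1: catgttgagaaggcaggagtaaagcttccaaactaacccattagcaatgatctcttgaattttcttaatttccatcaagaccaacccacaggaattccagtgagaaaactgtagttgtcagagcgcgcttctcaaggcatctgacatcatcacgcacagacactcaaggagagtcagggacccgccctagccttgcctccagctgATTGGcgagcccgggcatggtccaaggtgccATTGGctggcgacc
Cyp51: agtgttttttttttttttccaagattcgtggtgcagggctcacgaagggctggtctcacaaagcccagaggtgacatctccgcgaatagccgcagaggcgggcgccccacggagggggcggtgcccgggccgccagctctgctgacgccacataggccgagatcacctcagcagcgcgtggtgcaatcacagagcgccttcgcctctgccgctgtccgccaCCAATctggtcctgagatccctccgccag
Stard3: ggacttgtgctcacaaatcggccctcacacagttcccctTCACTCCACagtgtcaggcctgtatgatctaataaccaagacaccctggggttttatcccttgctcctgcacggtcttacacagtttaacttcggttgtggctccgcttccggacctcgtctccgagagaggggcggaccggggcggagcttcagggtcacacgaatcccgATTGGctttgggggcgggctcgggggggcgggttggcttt
Soat1: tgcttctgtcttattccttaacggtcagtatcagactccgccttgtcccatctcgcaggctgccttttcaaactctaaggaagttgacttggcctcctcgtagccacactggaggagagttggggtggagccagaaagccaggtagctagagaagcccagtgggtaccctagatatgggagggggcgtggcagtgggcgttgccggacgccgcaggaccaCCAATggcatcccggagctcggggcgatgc

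Cycling T-like cells also stood above CD4 T-like cells in the summed enzymes, by 1.46 (1.34 to 1.59) in F/F and 1.81 (1.69 to 1.94) in CD4-Cre, and by 1.62 and 2.1 with immunoglobulin out of the total. Of the 19 enzymes 15 were above 1 in both libraries, against 29.8% of 7888 genes, and 7 were past 1.5-fold, against 14.9%. Without immunoglobulin these were 16, against 35.6%, and 9, against 18.6%. Fdps stood at 38.2 and 31.4 CPM in CD4 T-like and 116 and 149 in cycling T-like cells, ratios of 3.04 and 4.76. Sqle had 3.09 and 4.15 and Idi1 2.54 and 3.33. Ggps1 was lower in the cycling cells, at 25.1 and 39.8 CPM against 73.6 and 65. The summed traffic genes were lower too, 390 and 355 against 644 and 641 CPM, a ratio of 0.605 (0.553 to 0.661) in F/F and 0.553 (0.512 to 0.596) in CD4-Cre, and 8 of 9 were under 1 in both libraries, as were 59.4% of the 7888 genes, whose median ratios were 0.796 and 0.725. Without immunoglobulin 8 were again under 1, against 52.4%. Osbp was the exception, with 0.964 and 1.19. Immunoglobulin made up 13.9% and 17.7% of the summed UMIs of cycling T-like cells, against 4.36% and 4.42% in CD4 T-like cells, but the median per cell was lower, 2.09% and 2.87% against 3.51% and 3.55%. Free RNA was read for this from barcodes of 150 to 350 UMIs. If it gave all of the summed share, it would make up at most 35.8% and 43.4% of the UMIs of cycling T-like cells, and 100 and 126 CPM of the summed enzymes.

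The SREBP control genes stood at 106 and 102 CPM in plasma-like and 181 and 169 in cycling plasma-like cells, ratios of 1.7 and 1.66, and without immunoglobulin 1.08 and 1.05. Srebf2, the gene of SREBP2 itself, had 2.55 and 2.56, from 26.8 and 23.4 to 68.6 and 59.9 CPM. It was the 1 control gene of 6 above 1 in both libraries without immunoglobulin, at 1.61 and 1.62. Insig1, an SREBP2 target whose product holds SCAP back, had 1.52 and 1.59. Scap, Insig2, Mbtps1 and Mbtps2 lay between 1.12 and 1.45. Against CD4 T-like cells, cycling T-like cells had 0.82 and 1.24 for Srebf2, 0.458 and 0.471 for Mbtps1, the site-1 protease gene, and 2.42 and 1.65 for Scap, so the control genes shared no direction there.

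Highest and lowest below are said of the 10 classes with a genotype ratio, since the other 4 held fewer cells, and of CPM over all UMIs. Immunoglobulin lowers that CPM most in plasma-like cells, and the classes were not ranked without it. Across the other classes Srebf2 stood at 72 and 55.4 CPM in CD4 T-like, 71.3 and 68.4 in cDC1-like, 59.4 and 50.9 in macrophage-like and 38.3 and 40.7 in CD8 T-like cells. It was at 58.9 and 68.7 in the Gzma/Trdc, 46 and 39.2 in the Xcl1/Klrd1, 46.9 and 50.5 in the Zbtb16/Il7r and 61.6 and 40.5 in the Il23r/Cd163l1 cluster, and plasma-like cells were lowest in both libraries. Insig1 was highest in macrophage-like cells, at 62.8 and 56.9 CPM, followed by cycling plasma-like cells at 53.9 and 51.4. It was at 35.3 and 32.4 in plasma-like, 40.5 and 35.7 in CD4 T-like, 31.7 and 25.2 in CD8 T-like and 24.6 and 24.7 in cDC1-like cells, and between 17.6 and 44 CPM in the 4 lymphoid clusters. Insig2 was highest in cDC1-like cells, at 24.5 and 28.4 CPM, and varied little, by 1.82-fold and 1.84-fold between its highest and lowest class. Mbtps1 was highest in the Gzma/Trdc cluster at 44.7 and 52.6 CPM, against 12.5 and 12.1 in plasma-like cells. Scap was highest in cycling plasma-like cells, at 19 and 19.1 CPM. Mbtps2, the site-2 protease gene, was lowest in plasma-like cells, at 3.93 and 3.7 CPM.

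The summed traffic genes had another order, with macrophage-like and then cDC1-like cells on top. The sum was 960 and 945 CPM in macrophage-like, 774 and 814 in cDC1-like, 644 and 641 in CD4 T-like and 247 and 245 in plasma-like cells. Npc2 alone gave 588 and 596 CPM of the macrophage-like sum, and the order of the sum without it was not computed. Macrophage-like over CD4 T-like ratios were 2.28 and 2.27 for Npc2 and also above 1 for Soat1 and Npc1. They were below 1 in both libraries for Stard4, Osbpl8 and Osbpl9, so the order is that of the sum and not of each gene. The macrophage-like over cDC1-like ratio was 1.24 (1.19 to 1.29) in F/F and 1.16 (1.12 to 1.21) in CD4-Cre. Soat1, the enzyme that esterifies cholesterol for storage, stood at 111 and 105 CPM in macrophage-like, 98.3 and 89.8 in cDC1-like, 33.8 and 37.5 in CD4 T-like and 25 and 29.7 in CD8 T-like cells. It was at 51.1 and 36.5 in the Il23r/Cd163l1 cluster and between 18.7 and 23.3 CPM in the other 3 lymphoid clusters. The plasma lineage was lowest, at 1.6 and 1.41 CPM in plasma-like and 3.99 and 3.62 in cycling plasma-like cells. Macrophage-like over plasma-like ratios were 69.7 (59.2 to 82.3) in F/F and 74.4 (61.9 to 89.9) in CD4-Cre, and 38.9 and 39.6 without immunoglobulin. They compare measured levels, and how much of the plasma-like level is free RNA was not tested. The macrophage-like level exceeded the cDC1-like level by 1.13 (1.01 to 1.27) in F/F and 1.17 (1.04 to 1.32) in CD4-Cre. A Soat1 UMI was found in 50.1% and 47.7% of macrophage-like cells and in 2.57% and 2.36% of plasma-like cells, although the plasma-like cells were deeper, with medians of 16526 and 16852 UMIs against 6130.5 and 6139. With each cell thinned to 1500 UMIs, the macrophage-like shares had exact intervals of 17.1% to 23.1% and 15.7% to 22.7%, and the plasma-like shares were 0.323% and 0.227%. Free RNA, read from barcodes of 10 to 100 UMIs, held Soat1 at 14 and 8.75 CPM on 19 and 13 UMIs. Barcodes of 150 to 350 UMIs held it at 7.70 and 9.41 CPM on 113 and 130 UMIs. Both ranges lie above both plasma lineage levels.

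The lysosomal exporters had the same top class. Npc2, which hands cholesterol to NPC1 in the lysosome lumen, was at 588 and 596 CPM in macrophage-like, 493 and 546 in cDC1-like, 257 and 263 in CD4 T-like and 265 and 264 in CD8 T-like cells. It was at 211 and 204 in cycling plasma-like and 163 and 165 in plasma-like cells, 221 and 186 in the Gzma/Trdc, 196 and 173 in the Il23r/Cd163l1, 161 and 174 in the Zbtb16/Il7r and 144 and 157 in the Xcl1/Klrd1 cluster, the lowest in both libraries. Free RNA held Npc2 at 186 and 189 CPM, above several of these. Npc1, the membrane exporter, stood at 18.2 and 20.8 CPM in macrophage-like, 7.98 and 7.96 in cDC1-like, 9.56 and 10.1 in CD4 T-like, 3.35 and 3.5 in plasma-like and 3.91 and 4.48 in cycling plasma-like cells. It was at 14.8 and 13.7 in the Xcl1/Klrd1, 15.7 and 14.2 in the Gzma/Trdc and 11 and 11.8 in the Zbtb16/Il7r cluster, and rested on 3 and 20 UMIs in CD8 T-like cells and 3 and 1 in the Il23r/Cd163l1 cluster. Stard3, which tethers late endosomes to the endoplasmic reticulum, was at 21.8 and 21 CPM in macrophage-like and 7.06 and 7.09 in plasma-like cells.

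Other traffic genes were highest in lymphocytes. Stard4, a soluble cholesterol carrier and SREBP2 target, stood at 29.3 and 28.2 CPM in CD4 T-like and 25 and 22.6 in CD8 T-like cells. It was at 28.3 and 31 in the Gzma/Trdc, 26.1 and 26 in the Xcl1/Klrd1, 28.6 and 22 in the Zbtb16/Il7r and 26.4 and 16.2 in the Il23r/Cd163l1 cluster. Intervals of these 6 classes overlap within each library. Macrophage-like cells (14.8 and 12.3), cDC1-like cells (8.49 and 9.63) and plasma-like cells (2.69 and 2.4) were lower. Within the plasma lineage Stard4 had a cycling ratio of 4.41 and 3.99, the highest of the traffic genes. Osbpl8, an endoplasmic reticulum protein that exchanges lipid with the plasma membrane, was highest in CD4 T-like cells, at 142 and 148 CPM against 18.8 and 17.9 in plasma-like cells, and was at 185 and 169 on 30 and 42 UMIs in ILC2-like cells, outside the 10 classes. Osbpl9, a relative of Osbp, stood at 125 and 111 CPM in CD4 T-like and 21.6 and 21.8 in plasma-like cells. Osbp, which brings cholesterol to the Golgi, was highest in cycling plasma-like cells at 30.7 and 31.2 CPM, close to 29.8 and 23.1 in macrophage-like cells in F/F. Osbpl2 had different highest classes in the libraries.

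**Figure D2:**
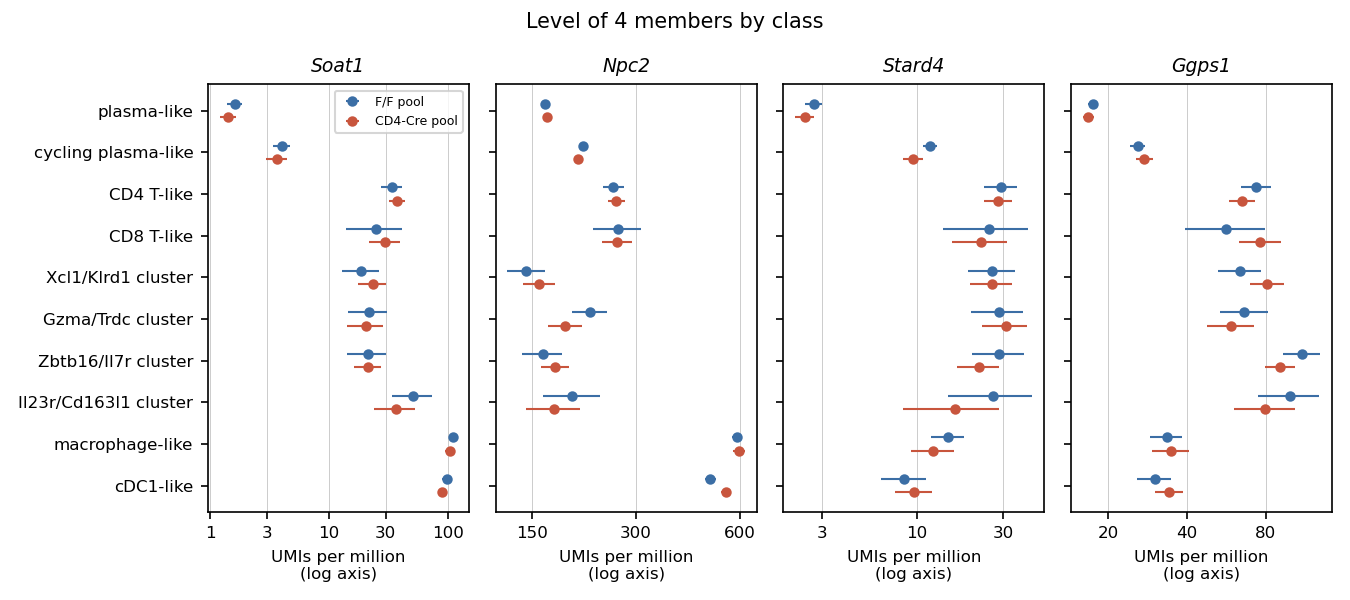
Levels of Soat1, Npc2, Stard4 and Ggps1 in the 10 classes, in UMIs per 1000000 on log axes, with exact 95% Poisson intervals for each pool. Soat1 and Npc2 are highest in macrophage-like and cDC1-like cells, while Stard4 and Ggps1 stand lower there than in CD4 T-like cells.

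Several enzymes had their highest class elsewhere than in cycling plasma-like cells. Ggps1 was highest in the Zbtb16/Il7r cluster, at 110 and 90.7 CPM against 17.5 and 16.8 in plasma-like cells, and Sc5d was highest there too, at 43.3 and 45.2 against 22.9 and 16.3 in CD4 T-like cells. Pmvk was highest in cDC1-like cells, at 67.2 and 63.7 CPM against 31.3 and 33.1 in macrophage-like cells, which had 0.465 (0.389 to 0.554) in F/F and 0.52 (0.429 to 0.627) in CD4-Cre of the cDC1-like level. Among the 10 classes Hmgcs1 was highest in the Gzma/Trdc cluster, at 34.3 and 29.7 CPM on 46 and 48 UMIs, and outside them it was at 23 and 33.9 in B-like and 27.4 and 26.7 in cycling T-like cells. It stood at 23.4 and 24.2 in macrophage-like, 22.4 and 19.8 in cycling plasma-like, 21.1 and 21.1 in cDC1-like, 18.3 and 13.6 in CD8 T-like, 16.6 and 14.2 in CD4 T-like and 6.58 and 6.17 in plasma-like cells. In the Xcl1/Klrd1 cluster Hmgcs1 was at 18.2 and 12.8, in the Zbtb16/Il7r cluster at 8.8 and 11.4 and in the Il23r/Cd163l1 cluster at 12.3 and 10.8 CPM. Lss, which closes the sterol rings, was highest in the Gzma/Trdc cluster on only 9 and 8 UMIs. Msmo1, a methyl sterol oxidase gene, was highest in macrophage-like cells, at 25.9 and 25.8 CPM, close to 25.5 and 22.7 in cycling plasma-like cells. Mvk and Nsdhl were highest in CD8 T-like cells, on 9 and 17, and on 15 and 29 UMIs.

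Among the 10 classes Sqle was highest in cycling plasma-like cells, at 25.4 and 25 CPM. Outside them it stood at 22.7 and 29.5 in cycling T-like and 13.3 and 25.7 in B-like cells. It was at 13.5 and 12.3 in macrophage-like, 9.06 and 8.26 in plasma-like, 7.98 and 11.6 in cDC1-like and 7.33 and 7.1 in CD4 T-like cells, and between 4.4 and 15.5 in CD8 T-like cells and the lymphoid clusters. Idi1 was at 19.9 and 24.4 CPM in macrophage-like, 14.1 and 16.9 in cDC1-like and 16.9 and 13.5 in CD4 T-like cells, 21.6 and 19.2 in the Gzma/Trdc cluster, and between 9.54 and 18.3 in CD8 T-like cells and the other 3 clusters. In cycling T-like cells Idi1 was at 43 and 45 CPM, above cycling plasma-like cells in both libraries, but the F/F intervals overlap. Without immunoglobulin it was at 49.9 and 54.7 in cycling T-like against 51.9 and 47.1 in cycling plasma-like cells, so the F/F order turned. Over all 34 members and the same 10 classes, the highest class was the same in both libraries for 22 and the lowest for 20. Cycling plasma-like cells were highest for 7 (Idi1, Fdps, Fdft1, Sqle, Ebp, Scap and Osbp) and macrophage-like cells for 5 (Msmo1, Insig1, Npc1, Npc2 and Soat1), and plasma-like cells were lowest for 14. These counts use all UMIs and depend on that scaling. The same counts were not made over all genes, so they describe the members and do not set them apart from other genes. Without immunoglobulin the plasma-like enzyme sum was 547 and 571 CPM. CD4 T-like cells then had 419 and 388 and macrophage-like cells 453 and 481. Hmgcs1, 1 of the 14, was then at 14.2 and 13.8 in plasma-like cells, above 9.18 and 12.0 in the Zbtb16/Il7r cluster. The Spearman correlation of class levels between libraries, over 10 classes, ranged from 0.05 for Mvd to 0.96 for Insig1, with a median of 0.74. It is a description, since the classes of a library share its free RNA and sequencing run.

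**Figure D3:**
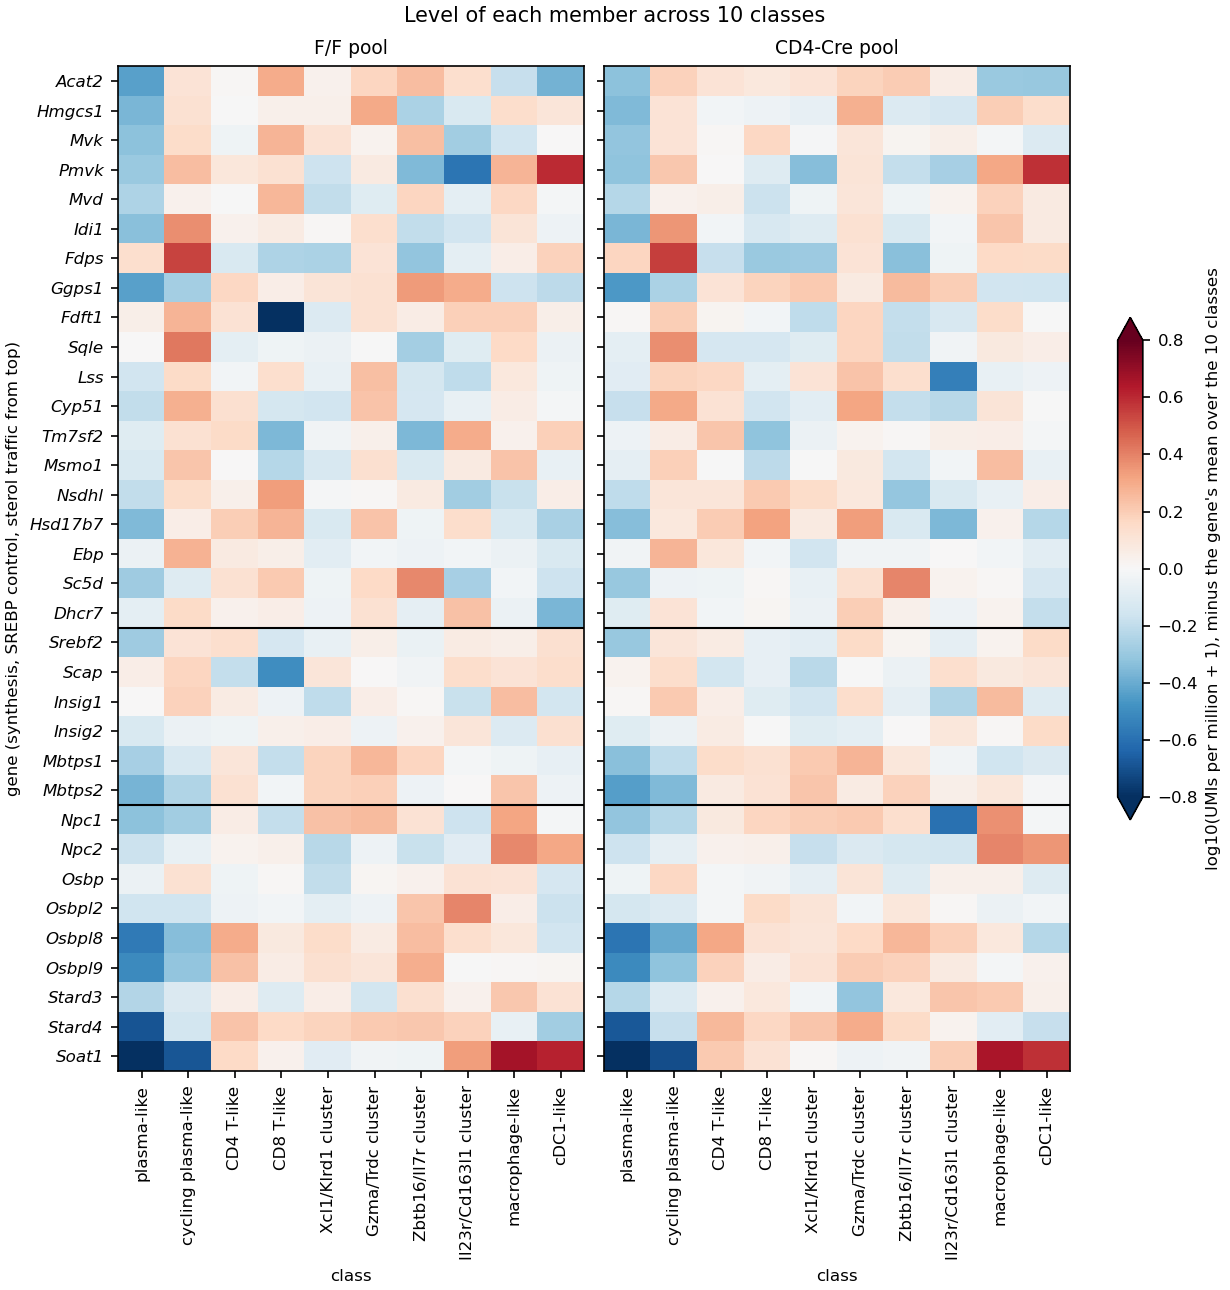
Level of each of the 34 members in 10 classes, as log10(UMIs per 1000000 + 1) minus the gene's own mean over the classes, with the F/F pool left and the CD4-Cre pool right. Black lines part synthesis, control and traffic genes. On this scale, whose total includes immunoglobulin, plasma-like cells are low for most members. Idi1, Fdps and Sqle stand out in cycling plasma-like cells, Pmvk in cDC1-like cells, and Soat1 and Npc2 in macrophage-like and cDC1-like cells.

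Between the genotypes, no pair of member and class was past 1.5-fold. A ratio is given where a gene had at least 100 UMIs in the class over both libraries, which held for 182 of 340 pairs and for each member in at least 1 class. Ratios ran from 0.669 for Osbpl2 to 1.45 for Insig2, both in macrophage-like cells. Osbpl2 was at 14 and 9.37 CPM on 86 and 41 UMIs, and its ratio passed 1.5-fold, at 0.660, with immunoglobulin out of the total. With genes of at least 20 UMIs admitted, 27 of 306 pairs were past 1.5-fold, or 8.82%, against 13.4% of all pairs of gene and class with that many. The classes differed in this. CD8 T-like cells had 8 of 26 members past it, or 30.8%, against 23.0% of genes. The Zbtb16/Il7r cluster had 7 of 31, or 22.6%, against 13.9%, and the Il23r/Cd163l1 cluster 5 of 18, or 27.8%, against 20.7%. In the other classes the member share was below the gene share.

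CD4-Cre is known to act in developing αβ T cells, which give rise to CD8 as well as CD4 cells, so the CD4 T-like class is not its only target. In it 0 of 22 members with at least 100 UMIs were past 1.5-fold, against 2.77% of 6750 genes (1.73% higher and 1.04% lower). Of the 22, 8 were higher and 14 lower in CD4-Cre, or 5 and 17 once centred on the median gene, whose log2 ratio was 0.07. The summed enzymes were at 401 (379 to 423) and 371 (353 to 390) CPM, a ratio of 0.927 (0.86 to 0.998). It was 0.979 (0.881 to 1.09) in the cluster led by Cd4 and Furin and 0.875 (0.786 to 0.973) in the one with Tnfrsf9, Icos and Il10 among its leading genes. Control genes had 0.977 (0.875 to 1.09) and traffic genes 0.995 (0.94 to 1.05). Srebf2 stood at 72 and 55.4 CPM on 226 and 242 UMIs, 0.769 (0.639 to 0.926). Coarser clustering placed 1122 and 1734 cells in this class, with Cd8b1 among the leading genes of 1 of its clusters. It gave a log2 ratio of -0.00 for the summed enzymes and -0.07 for Srebf2, against -0.11 and -0.38, and 0.37 against -0.06 for Stard4. Sc5d had 0.709 (0.503 to 0.997) and Insig2 1.38 (0.979 to 1.97), which was 1.54 with the 5 highest cells of each pool left out. The ratios of the other genes followed in every class were Hmgcs1 0.857 (0.583 to 1.26), Idi1 0.80 (0.543 to 1.18), Insig1 0.883 (0.694 to 1.12), Npc2 1.02 (0.933 to 1.12), Stard4 0.961 (0.727 to 1.27) and Soat1 1.11 (0.865 to 1.43). Sqle and Npc1 were below 100 UMIs, at 7.33 and 7.1, and at 9.56 and 10.1 CPM. A Mki67 UMI was found in 8.46% and 6.28% of these cells, and its part in the enzyme ratio was not tested.

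**Figure D4:**
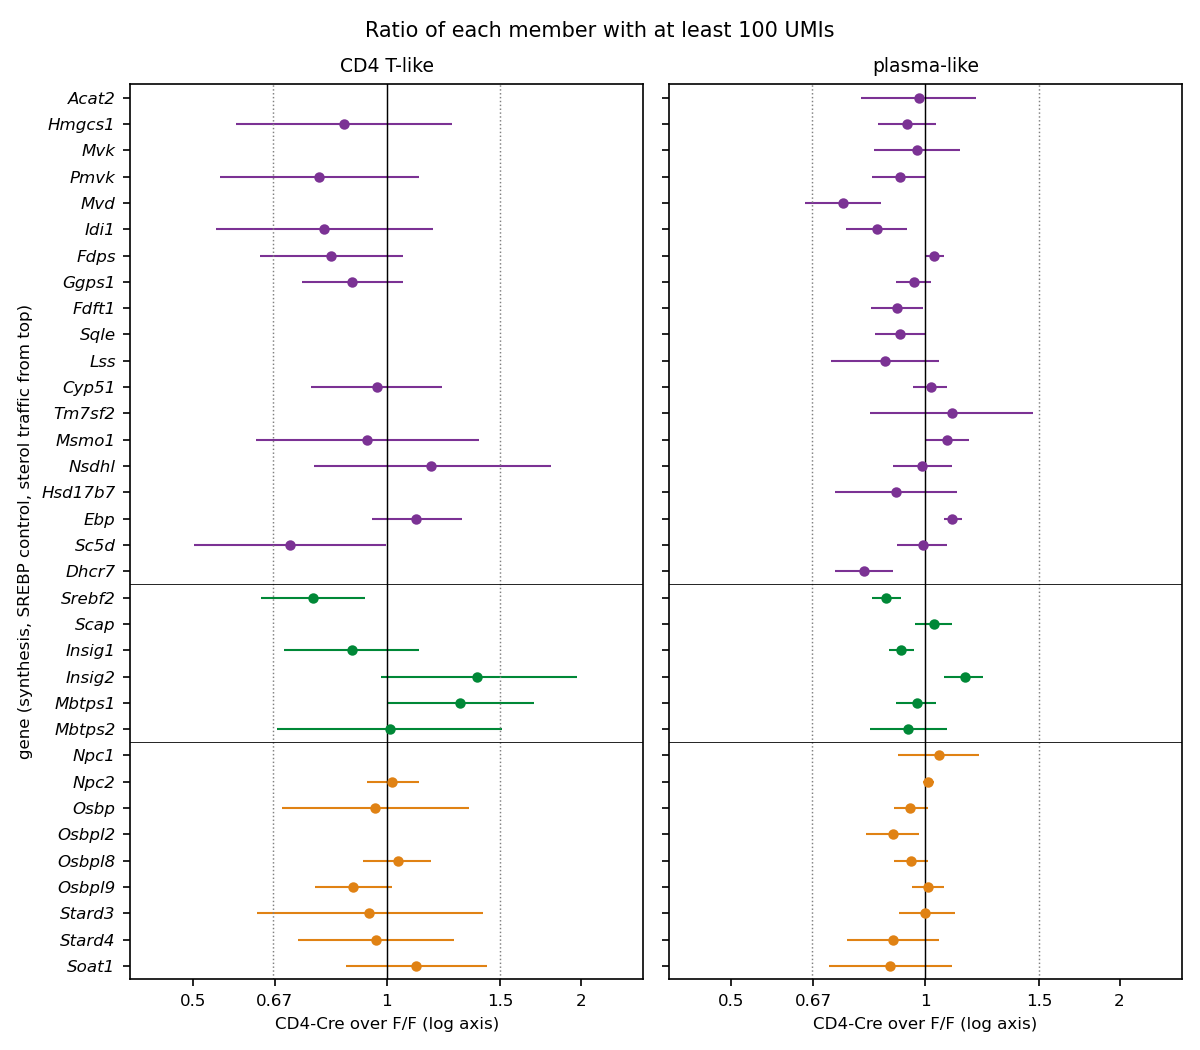
CD4-Cre over F/F ratio of each member with at least 100 UMIs in CD4 T-like cells (left, 22 genes) and plasma-like cells (right, 34 genes), on a log axis, with exact 95% intervals of counting error. Colours mark synthesis (purple), control (green) and traffic (orange) genes, and no point passes the dotted lines at 1.5-fold.

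The other T-like and lymphoid classes gave few members to compare. In CD8 T-like cells 0 of 5 members with at least 100 UMIs were past 1.5-fold, against 10.0% of 3047 genes (7.81% higher and 2.23% lower), and the summed enzymes had a ratio of 0.854 (0.729 to 1.0). Ggps1 there had 1.34 (0.911 to 2.03), which was 1.65 without the 5 highest cells, and Npc2 0.997 (0.828 to 1.2). In the Xcl1/Klrd1 cluster 0 of 9 members with at least 100 UMIs were past 1.5-fold, against 3.89% of 4937 genes (2.37% higher and 1.52% lower), with 1.0 (0.895 to 1.13) for the enzyme sum, Srebf2 0.852 (0.623 to 1.17), Npc2 1.09 (0.926 to 1.29) and Stard4 0.994 (0.665 to 1.5). In the Gzma/Trdc cluster 0 of 10 members with at least 100 UMIs were past 1.5-fold, against 5.28% of 4000 genes (3.85% higher and 1.43% lower), with 1.01 (0.903 to 1.12) for the sum. There Osbpl9 stood at 90.2 and 117 CPM, 1.3 (1.03 to 1.64), and the ratios of Srebf2, Insig1 and Npc2 were 1.17 (0.867 to 1.58), 1.11 (0.769 to 1.62) and 0.845 (0.717 to 0.995). In the Zbtb16/Il7r cluster 0 of 9 members with at least 100 UMIs were past 1.5-fold, against 3.11% of 4854 genes (1.65% higher and 1.46% lower), with 0.90 (0.807 to 1.01) for the sum. Osbpl9 there went the other way, at 142 and 111 CPM, 0.779 (0.647 to 0.939), with Srebf2 1.08 (0.792 to 1.47), Insig1 0.739 (0.506 to 1.09) and Npc2 1.08 (0.921 to 1.28) beside it. In the Il23r/Cd163l1 cluster 0 of 4 members with at least 100 UMIs were past 1.5-fold, against 5.98% of 1889 genes (1.69% higher and 4.29% lower), with 0.929 (0.768 to 1.12) for the sum and 0.884 (0.68 to 1.15) for Npc2.

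Plasma-like cells, outside the T cell lineage, gave the narrowest intervals. In them 0 of 34 members with at least 100 UMIs were past 1.5-fold, against 3.68% of 11591 genes (1.12% higher and 2.56% lower), and in cycling plasma-like cells 0 of 34 members with at least 100 UMIs were past 1.5-fold, against 3.25% of 9997 genes (0.900% higher and 2.35% lower). In plasma-like cells 11 members were higher and 23 lower, or 14 and 20 when centred on the median gene, whose log2 ratio was -0.03. With immunoglobulin out of the total they were 16 and 18. How many of all genes were higher or lower was not counted in any class. In cycling plasma-like cells 8 were higher and 26 lower, or 12 and 22 when centred on the median gene and 13 and 21 without immunoglobulin. Mvd had the lowest member ratio in plasma-like cells, 4.45 and 3.31 CPM on 523 and 362 UMIs, 0.745 (0.65 to 0.853), and stood at 9.41 and 6.8 CPM in cycling ones, 0.723 (0.601 to 0.867). The lowest there was Tm7sf2, a sterol reductase gene, at 0.701 (0.461 to 1.05) on 74 and 38 UMIs. Dhcr7, which acts last in its branch of the pathway, had 0.803 (0.723 to 0.891), and 0.76 (0.651 to 0.885) in cycling cells. Ebp was higher in plasma-like cells, at 1.1 (1.07 to 1.14). The summed enzymes had 1.01 (0.992 to 1.02), and 0.974 (0.954 to 0.993) in cycling cells, where the log2 ratio turned from -0.04 to 0.01 without immunoglobulin. In plasma-like cells the genes followed throughout had Hmgcs1 0.937 (0.844 to 1.04), Idi1 0.84 (0.754 to 0.935), Sqle 0.912 (0.834 to 0.997), Srebf2 0.87 (0.826 to 0.917), Insig1 0.918 (0.877 to 0.96), Npc1 1.05 (0.907 to 1.21), Npc2 1.01 (0.991 to 1.03), Stard4 0.892 (0.755 to 1.05) and Soat1 0.882 (0.708 to 1.1). In cycling plasma-like cells they had Hmgcs1 0.884 (0.791 to 0.987), Idi1 0.877 (0.805 to 0.955), Sqle 0.984 (0.889 to 1.09), Srebf2 0.874 (0.82 to 0.931), Insig1 0.955 (0.89 to 1.02), Npc1 1.15 (0.892 to 1.47), Npc2 0.967 (0.934 to 1.0), Stard4 0.808 (0.689 to 0.945) and Soat1 0.908 (0.695 to 1.18). In the plasma-like class 1 cluster held 1329 F/F and 6 CD4-Cre cells, and without it the log2 ratio of the enzyme sum was again 0.01.

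In macrophage-like cells 0 of 27 members with at least 100 UMIs were past 1.5-fold, against 5.42% of 7789 genes (2.07% higher and 3.35% lower). The summed enzymes were at 376 (361 to 392) and 405 (386 to 424) CPM, a ratio of 1.08 (1.01 to 1.15), with Fdps at 57.5 and 70.1 CPM, 1.22 (1.04 to 1.43). Finer clustering, which kept 665 and 455 cells in the class, turned the log2 ratio of the sum from 0.11 to -0.05 and that of Idi1 from 0.30 to -0.28. It also gave a cluster of 82 and 87 cells with markers of type 2 conventional dendritic cells, which had no class of their own in the clustering used. The macrophage-like class may therefore hold such cells, and their part in these ratios was not tested. Insig2 was at 13.8 and 20.1 CPM, 1.45 (1.07 to 1.98), and Osbp at 29.8 and 23.1, 0.774 (0.601 to 0.993). The genes followed throughout had Hmgcs1 1.03 (0.796 to 1.34), Idi1 1.23 (0.94 to 1.61), Sqle 0.913 (0.636 to 1.3), Srebf2 0.857 (0.722 to 1.02), Insig1 0.905 (0.769 to 1.06), Npc1 1.14 (0.855 to 1.52), Npc2 1.02 (0.965 to 1.07), Stard4 0.833 (0.583 to 1.18) and Soat1 0.942 (0.835 to 1.06).

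In cDC1-like cells 0 of 28 members with at least 100 UMIs were past 1.5-fold, against 3.14% of 7700 genes (1.32% higher and 1.82% lower). The enzyme sum had a ratio of 1.0 (0.95 to 1.06) and the traffic sum 1.05 (1.01 to 1.09). Sqle was at 7.98 and 11.6 CPM on 47 and 90 UMIs, 1.45 (1.01 to 2.11), which was 1.53 without the 5 highest cells. Osbpl8 stood at 49.9 and 42.2 CPM, 0.846 (0.721 to 0.994). The others followed throughout had Hmgcs1 1.0 (0.787 to 1.27), Idi1 1.2 (0.907 to 1.6), Srebf2 0.96 (0.843 to 1.09), Insig1 1.0 (0.803 to 1.25), Npc1 0.998 (0.672 to 1.49), Npc2 1.11 (1.06 to 1.16), Stard4 1.13 (0.783 to 1.66) and Soat1 0.913 (0.817 to 1.02). With finer clustering the log2 ratio of Idi1 turned from 0.27 to -0.18. That clustering also gave a cluster of 13 and 38 cells with markers of migratory dendritic cells, which had no class of their own in the clustering used. Their part in this turn was not tested.

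**Figure D5:**
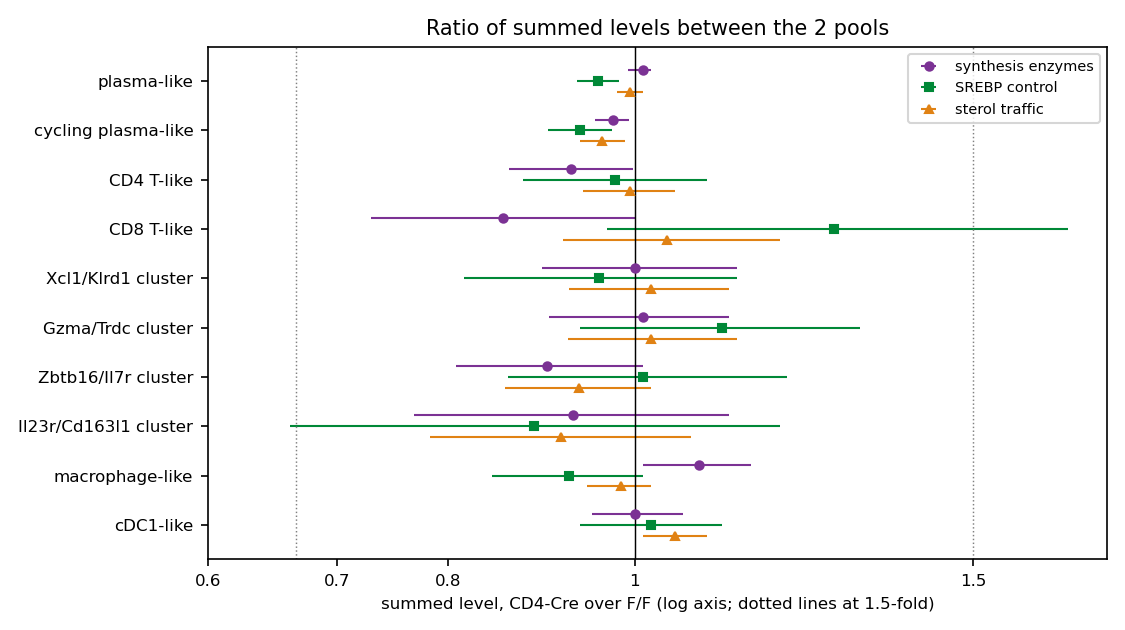
CD4-Cre over F/F ratio of the summed level of each role in 10 classes, on a log axis, with exact 95% intervals of counting error. Every summed ratio lies inside the dotted lines at 1.5-fold, from 0.854 for synthesis to 1.27 for SREBP control, both in CD8 T-like cells.

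A further 34 sterol genes outside the members, such as ubiquitin ligases that act on sterol proteins and other oxysterol-binding proteins, were counted in the same way. In CD4 T-like cells 19 of them had 100 UMIs, 14 higher and 5 lower, with 0 past 1.5-fold, against 2.77% of all genes there. In plasma-like cells 30 had, 10 higher and 20 lower, with 0 past it, against 3.68%. In macrophage-like cells 1 of 23 was past it, against 5.42%, in cDC1-like cells 1 of 19, against 3.14%, in the Gzma/Trdc cluster 1 of 10, against 5.28%, and in the Xcl1/Klrd1 cluster 1 of 11, against 3.89%, which was Stard3nl, named after its value was seen. With 1 gene in each, these shares give no result about the list, and the splits into higher and lower have no count over all genes beside them. Syvn1, a ubiquitin ligase gene of the endoplasmic reticulum, was the one in macrophage-like cells, at 38.4 and 25.4 CPM, 0.660 (0.522 to 0.830). Mylip, the gene of a ligase that marks lipoprotein receptors for degradation, was the one in cDC1-like cells, at 25.1 and 38.4 CPM, 1.53 (1.25 to 1.87). In the Gzma/Trdc cluster Mylip was at 28.3 and 53.9 CPM, 1.90 (1.29 to 2.86).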

How the data were processed

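The 2 libraries, 1 per genotype, held UMI counts per gene and barcode, deposited unfiltered by the authors. Per the submitters' processing notes, Cell Ranger 7.2.0 and Seurat 5.0.1 were used with mm10 (GRCm38); the authors' cell filter and cell types were not used here. Cells with at least 1000 UMIs, 500 genes and at most 10% mitochondrial UMIs were kept. They were clustered with scanpy 1.11.5 (2000 variable genes, 30 components, 15 neighbours, Leiden resolution 1, seed 1) without the members, the 34 other sterol genes, and without ribosomal, mitochondrial, T cell receptor and immunoglobulin genes. Classes were named from marker lists, with detection limits (20% of cells for a marker, 60% with Mki67 for cycling) set after the clusters were seen. No doublet caller was used, so doublets remain, and the cluster mixing T cell and plasma genes was left out.

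UMIs were summed per class and library. Intervals are exact Poisson (levels), binomial split (ratios) and Clopper-Pearson (shares), at 95%. Genes with at least 100 UMIs in a class got a ratio, and called means past 1.5-fold, with no test. The interval code was checked on simulated counts. Positions of all 34 members matched GENCODE M21 identifiers. The members and lists were chosen with earlier results of these data known. The members Hmgcs1, Sqle, Idi1, Insig1, Srebf2, Npc1, Npc2, Soat1 and Stard4 were described in every class. Other members were named where the interval of the log2 ratio stayed at least 0.2 from 0, or where the class with the highest level was shared by both libraries. Further members were named after their values were seen, to complete a role. 1 other sterol gene that the rule names is not reported here. Alternatives were other scalings, cell filters, clusterings, gene minimums, leaving out the 5 highest cells, and counting the acinar-led cluster as plasma-like, the last chosen after seeing the data.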

Additional observations from a re-analysis of the deposited data

Results flagged for a closer look

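Where a sum or a member moved in opposite directions in different classes, with intervals on either side of 1, the difference between the classes was not tested, since each genotype was 1 library. The summed synthesis enzymes had CD4-Cre over F/F ratios of 1.08 in macrophage-like cells, 0.974 in cycling plasma-like cells and 0.927 in CD4 T-like cells. The summed traffic genes had 1.05 in cDC1-like cells and 0.962 in cycling plasma-like cells. Sqle had 1.45 in cDC1-like cells but 0.912 in the plasma-like class, and Sc5d 1.20 in cycling plasma-like and 0.709 in CD4 T-like cells. Npc2 had 1.11 in cDC1-like cells and 0.845 in the Gzma/Trdc cluster. Osbpl9 had 1.30 in the Gzma/Trdc cluster and 0.779 in the Zbtb16/Il7r cluster. They were found by searching the sums and 182 single ratios.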

How the results depend on the processing

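Of 247 alternative values of the sums, class comparisons and counts, 27 moved by more than counting error and 0 reversed a value past 1.5-fold. Summed genotype ratios could not count as reversed, since their reported log2 values, -0.23 to 0.34, were not past it. Of 826 alternative values of single genes, medians and shares, 213 moved, and 177 of these were shares thinned to 1500 UMIs. The synthesis sums of macrophage-like and cycling plasma-like cells, with intervals off 1 as reported, changed sign. The cause was not tested. With immunoglobulin out of the total, log2 ratios (CD4-Cre over F/F) in plasma-like cells were 0.06 for synthesis, -0.01 for control and 0.05 for traffic, and in cycling plasma-like cells 0.01 for synthesis and -0.00 for traffic. Centring on the median gene gave 0.04 for synthesis and 0.03 for traffic in plasma-like and -0.01 for synthesis in cycling plasma-like cells. At most 10% immunoglobulin gave -0.09 for traffic in macrophage-like cells. Leiden resolution 0.5 gave 0.10 for traffic in CD4 T-like cells, resolution 2 gave -0.05 for synthesis in macrophage-like cells, and adding the acinar-led cluster -0.04 for synthesis in plasma-like cells. The cycling plasma-like over plasma-like log2 ratio of synthesis, 1.32 in F/F and 1.27 in CD4-Cre, was 0.66 and 0.61 without immunoglobulin, 1.28 and 1.23 at resolution 0.5, and 1.27 in F/F with the acinar-led cluster. The cycling T-like over CD4 T-like log2 ratio, 0.55 and 0.86, was 0.70 and 1.07 without immunoglobulin, 0.71 and 1.09 at most 10% immunoglobulin, and 0.36 and 0.73 with each gene's 5 highest cells left out. Pairs of member and class past 1.5-fold, 0 as reported, were 1 without immunoglobulin and 1 in cells of at least 2000 UMIs (Osbpl2 in macrophage-like cells in both), 4 with the 5 highest cells left out, and 27 of 306 with genes of at least 20 UMIs, where single ratios rest on few UMIs. No paired analysis was possible because each genotype was 1 pooled library.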

Other observations

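Cells were also split within a class by whether they held a UMI of Mki67, a gene of dividing cells, a split chosen after seeing the data. In each of plasma-like, B-like, CD4 T-like, macrophage-like and cDC1-like cells, and in both libraries, the summed synthesis enzymes were higher in the cells with Mki67. In CD4 T-like cells they were at 492 against 383 CPM in F/F (66 and 714 cells), a ratio of 1.28 (1.11 to 1.48), and at 494 against 356 CPM in CD4-Cre (74 and 1105 cells), 1.39 (1.21 to 1.60). In plasma-like cells the ratios were 1.30 (1.27 to 1.34) and 1.28 (1.24 to 1.32), in macrophage-like cells 1.17 (1.06 to 1.28) and 1.21 (1.09 to 1.34), and in cDC1-like cells 1.16 (1.06 to 1.26) and 1.28 (1.18 to 1.39). The plasma-like difference was smaller with immunoglobulin out of the total, at 623 against 529 CPM in F/F and 633 against 556 in CD4-Cre. In cycling plasma-like cells the ratios were 0.901 and 0.946, and in cycling T-like cells 1.0 (0.819 to 1.23) and 0.827 (0.692 to 0.994), with 18 cells without Mki67 in each library. Cells with a Mki67 UMI were deeper, with medians of 5044.5 against 3429 UMIs in F/F CD4 T-like cells, and the part of depth in the split was not tested. In macrophage-like cells the traffic genes went the other way, at 917 against 1224 CPM in F/F and 818 against 1218 in CD4-Cre with immunoglobulin out of the total. This was not particular to macrophage-like cells. On the same scale the traffic genes were also lower with Mki67 in B-like, CD4 T-like, cDC1-like and cycling plasma-like cells, in both libraries. They were slightly higher with Mki67 in plasma-like cells, and in cycling T-like cells the libraries differed in direction.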
